A study of Mus musculus with 4 samples.

Results

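DNA replication and G1/S genes were examined in basal cells of the mouse mammary gland, which lie around the luminal cells of its ducts. The set holds 34 genes, listed by name for their roles in copying DNA and in entry into S phase, and it was chosen with earlier results of these data known. All 34 were matched by symbol among the 17630 genes listed in each library, of which 17512 carried a symbol.

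The study asks how sympathetic nerve signals act on the mammary gland and its stem cells. Basal cells were sorted from wild-type (WT) mice without treatment and from WT mice given 6-OHDA (6-hydroxydopamine), a neurotoxin that destroys sympathetic nerve endings. Untreated WT basal cells were also grown into colonies in Matrigel (an extracellular matrix gel), either without further agents or with SP, the mixture of salbutamol (a β2 adrenergic receptor agonist) and phenylephrine (an α1 adrenergic receptor agonist). Each of these 4 conditions had 1 library, so there was no spread between replicates, no test was made, and every difference is a difference between 2 libraries. The labels give neither age, sex nor strain, and whether a library came from 1 animal or from a pool was not found in the labels or methods. The methods state that glands were taken from females, and they describe 6-OHDA given in puberty or in pregnancy without naming the age for these libraries. They name C57BL/6 and Actin-DsRed mice among those used and describe subcutaneous injection of 6-OHDA. In other 6-OHDA experiments the paper describes the control mice as saline-treated. It does not state whether the control mice of these libraries received saline. For sorting the methods list antibodies that include those to CD24, CD29, CD31, CD45 and TER119. The introduction of the paper defines basal cells as lineage-negative, CD24-positive and CD29-high. The titles of the colony libraries carry the numbers 0 and 200 with no unit, so the SP dose is not stated here.

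Replication is licensed in G1, when the origin recognition complex, CDC6 and CDT1 load the MCM helicase onto DNA, and geminin later blocks CDT1 so that origins are not loaded again. At the G1/S transition, cyclin E with its kinase relieves the hold of the retinoblastoma protein on E2F factors, which transcribe many replication genes. CDC45 and the GINS complex then switch on the helicase, and polymerases, the PCNA clamp and its loaders copy the strands while nucleotide enzymes supply the building blocks and histone chaperones rebuild chromatin. In the mammary gland such genes are commonly read as marks of dividing cells during ductal growth and pregnancy.

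The authors deposited FPKM values, which are fragments per kilobase of transcript scaled to the fragments of the library, so levels of different genes can be set side by side. The 34 genes summed to 437.9 FPKM in control sorted cells, 487.5 after 6-OHDA, 696.3 in control colonies and 904.2 in SP colonies. Pcna, which encodes the sliding clamp, was the most abundant of them in all 4 libraries and made up much of these sums, since without it they were 206.0, 265.8, 538.9 and 722.1 FPKM. The median level of a member was 2.63 FPKM in control sorted cells, 5.33 after 6-OHDA, 15.8 in control colonies and 18.9 in SP colonies. Members below 5 FPKM numbered 21, 15, 7 and 2 in the same order. Most members were thus below 5 FPKM in control sorted cells, and most were above it in the other 3 libraries.

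**Figure D1:**
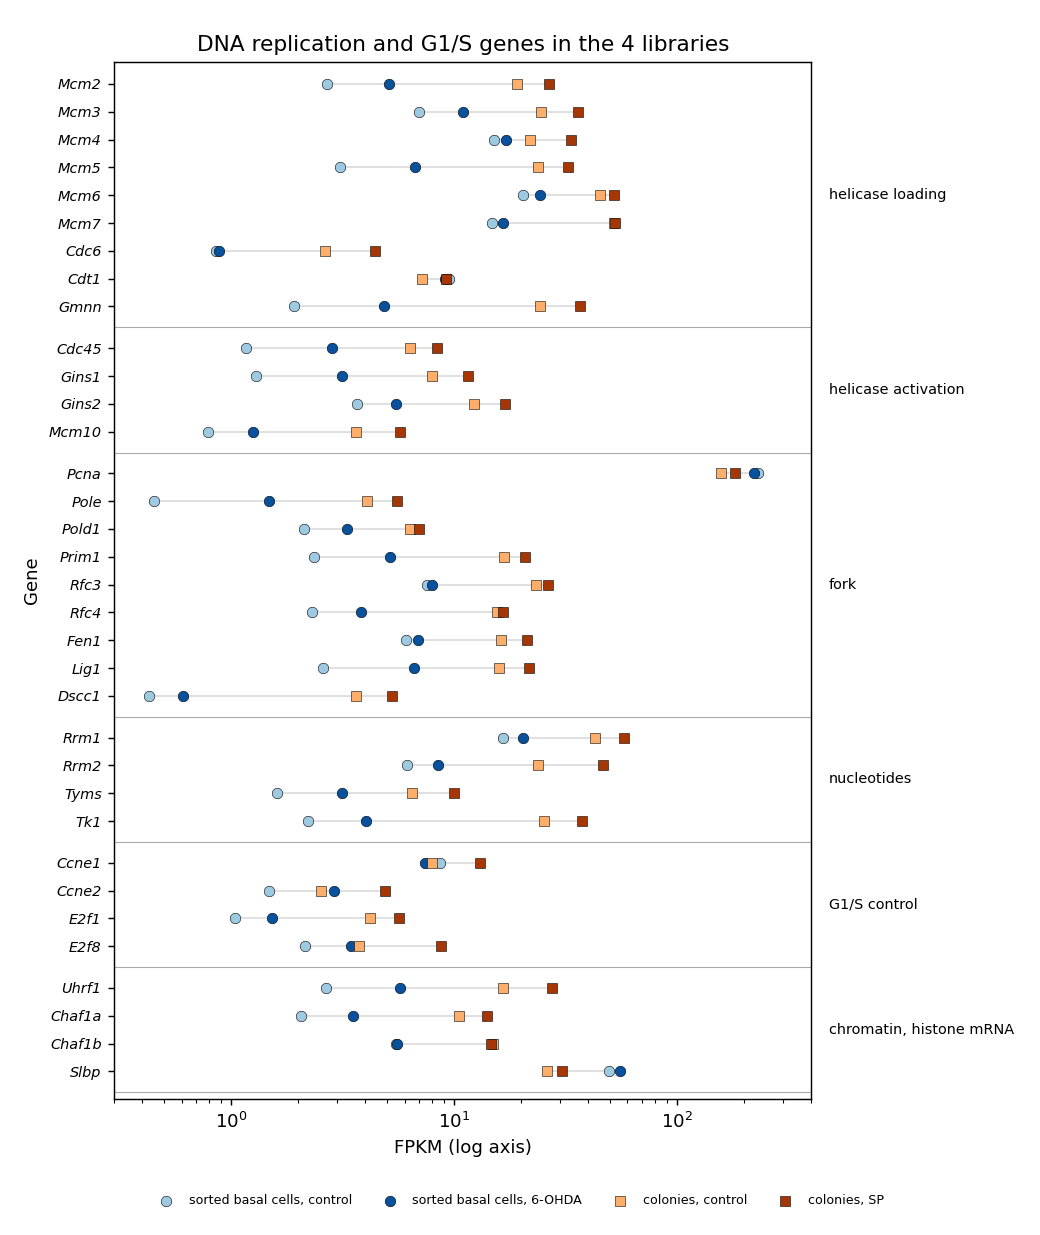
FPKM on a log axis of each of the 34 genes in the 4 libraries, with circles for sorted basal cells and squares for colonies, light for control and dark for treated. The 2 colony libraries lie to the right of the 2 sorted libraries for most genes, while Pcna and Slbp lie further left in the colonies than in the sorted cells.

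Depth was estimated roughly from the steps between low values, at 16.1 to 17.8 fragments for 1 FPKM on 1 kilobase with an assumed fragment length of 250 bases. By this estimate and the longest coding transcript, 7 members rested on fewer than 50 fragments in the control sorted library and 2 in the 6-OHDA library, and none did in the colonies. The fewest were about 9 fragments for Dscc1 in the control sorted cells. Changes of such members are therefore imprecise through counting alone. Each change is a difference of log2(FPKM + 1), a scale that shrinks changes between low values, and a gene was counted as higher or lower when it passed 0.3 on this scale, the fold part of the limits that the study set for a plot of changed genes in basal cells. The other part of those limits, an adjusted p-value, could not be applied with 1 library per condition.

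After 6-OHDA, 21 of the 34 genes were higher and 0 were lower, where 15.8% of the 11749 genes with a mean of at least 1 FPKM were higher and 8.35% were lower. With a pseudocount of 5 instead of 1, 11 members were higher and their median was 0.25, where 6.84% of genes were higher. With the pseudocount of 1 used elsewhere, the median log2 change of the members was 0.47, beside 0.06 over all genes compared, and single members ran from -0.20 for Ccne1 to 1.09 for Lig1. Of the 34 members, 31 had a mean of at least 1 FPKM over the pair of libraries, and all 34 were counted; in the other comparisons all 34 passed that filter. In bulk RNA, more cells in S phase, more of these transcripts per cell and a different mix of cell types cannot be told apart. In SP colonies, 25 members were higher and 0 were lower, where 11.7% of 11849 genes were higher and 19.8% were lower. Here the members had a median of 0.43 beside -0.07 over all genes, and ran from -0.02 for Chaf1b to 1.03 for E2f8. A larger share of the set than of all genes was higher in each treatment, and no member was lower in either.

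In control colonies against control sorted cells, 30 members were higher and 3 were lower, where 55.7% of 12244 genes were higher and 26.6% were lower. The members had a median log2 change of 1.52, beside 0.45 over all genes, a distance of 1.07. By a change of over 1, 26 members were higher, where 30.7% of genes were. Scaling by the median ratio moved the median of all genes from 0.45 to 0.00, with 40.0% of them then higher and 39.6% lower. The members then had 27 higher and 4 lower and a median 1.11 above that of all genes. Without this scaling and at a pseudocount of 5, the median of the members was 0.96, which was 0.65 above that of all genes. The culture comparison shares a control library with each of the treatment comparisons, so its values are set beside theirs without a count of shared calls.

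The MCM2 to MCM7 proteins form the ring of the replicative helicase, and their genes differed from each other after 6-OHDA. Mcm5 (NCBI Gene 17218) was at 3.08 FPKM in control sorted cells, 6.68 after 6-OHDA, 23.8 in control colonies and 32.5 in SP colonies. Its log2 changes were 0.91 with 6-OHDA, 0.43 with SP and 2.60 in culture. Mcm2 showed the same order of libraries, with 2.69 and 5.09 FPKM in the sorted pair and 19.2 and 26.7 in the colonies, as did Mcm3 with 6.94, 11, 24.5 and 36 FPKM. The ring subunits with the higher starting levels moved less in sorted cells. Mcm4 was at 15.1 and 17.1 FPKM there (a change of 0.17), Mcm6 at 20.4 and 24.4 (0.25), and Mcm7 at 14.8 and 16.6 (0.15). With SP, Mcm4 passed the threshold (21.9 to 33.4 FPKM, 0.59), whereas Mcm6 (45.2 to 52.2, 0.20) and Mcm7 (52.5 to 52.8, 0.01) did not. In control sorted cells the 6 subunits of a ring that holds each of them in equal number thus ranged from 2.69 to 20.4 FPKM.

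Gmnn (NCBI Gene 57441) encodes geminin, the inhibitor of CDT1 that accumulates from S phase on. It was at 1.91 FPKM in control sorted cells, 4.86 after 6-OHDA, 24.3 in control colonies and 36.6 with SP. Its changes of 1.01 with 6-OHDA, 0.57 with SP and 3.12 in culture were the largest of the loading genes in the sorted and the culture comparison. Both of these rest on about 28 fragments in the control sorted library. Cdt1, the loading factor that geminin blocks and that is degraded in S phase, was instead at 9.51 FPKM in control sorted cells, 9.08 after 6-OHDA, 7.16 in control colonies and 9.23 with SP. Cdt1 was lower in culture by the threshold (-0.37) and higher with SP (0.33), while its change with 6-OHDA was -0.06. At a pseudocount of 5 the culture change of Cdt1 was -0.25 and did not pass. Cdc6 (NCBI Gene 23834), which works with CDT1 and was the lowest member in SP colonies, was at 0.86 and 0.88 FPKM in the sorted pair and at 2.64 and 4.41 FPKM in the colonies. Its change was 0.02 with 6-OHDA and 0.57 with SP. The inhibitor of loading was thus higher in all 3 comparisons, and the 2 loading factors passed the threshold with SP but not with 6-OHDA, though Cdt1 did not pass with SP at a pseudocount of 5. The difference between the treatments was not tested. Among the 9 loading genes together, 4 were higher with 6-OHDA, 7 with SP and 8 in culture, where 15.8%, 11.7% and 55.7% of all genes were. Mcm4 lost its call in culture under scaling by the median ratio (0.03) and under quantile normalization (0.17).

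All 4 helicase activation genes were higher with 6-OHDA, with SP and in culture, where 15.8%, 11.7% and 55.7% of all genes were. At a pseudocount of 5 Gins2 and Mcm10 lost this call with 6-OHDA and Cdc45 lost it with SP. Gins1 (NCBI Gene 69270), a subunit of the GINS complex, was at 1.29 FPKM in control sorted cells, 3.14 after 6-OHDA, 7.94 in control colonies and 11.6 in SP colonies, with changes of 0.85, 0.49 and 1.96 for 6-OHDA, SP and culture. Cdc45 (NCBI Gene 12544), which joins GINS and the MCM ring in the active helicase, was at 1.17, 2.83, 6.38 and 8.35 FPKM in the same order of libraries. Its changes were 0.82, 0.34 and 1.77. For both genes the order of the libraries was control sorted cells, 6-OHDA, control colonies and SP colonies from low to high. Gins2, another GINS subunit, was at 3.68 and 5.49 FPKM in sorted cells (0.47) and at 12.4 and 17 FPKM in colonies (0.43). Mcm10, a scaffold needed for activation that is not part of the ring, went from 0.79 to 1.26 FPKM (0.34) and from 3.65 to 5.72 FPKM (0.53). The 6-OHDA changes of Gins1 and Cdc45 rest on about 18 and 37 fragments in the control library.

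The 9 fork genes differed among themselves. Lig1 (NCBI Gene 16881), the ligase that joins Okazaki fragments, was at 2.59 FPKM in control sorted cells, 6.64 after 6-OHDA, 15.9 in control colonies and 21.7 with SP. Its change of 1.09 was the largest of all members with 6-OHDA, beside 0.42 with SP. Prim1 (NCBI Gene 19075), the catalytic subunit of primase, was at 2.35, 5.18, 16.8 and 20.8 FPKM in the same order. It was higher with 6-OHDA (0.88) and lay just under the threshold with SP (0.30 after rounding), which it passed at a pseudocount of 0.1 and under median-ratio or quantile scaling. The catalytic subunits of the leading and the lagging strand polymerases were both higher after 6-OHDA, with Pole at 0.45 and 1.48 FPKM (0.77) and Pold1 at 2.13 and 3.33 (0.47). In the colonies Pole went from 4.07 to 5.55 FPKM (0.37) and Pold1 from 6.35 to 6.97 (0.12), so that Pole alone of this pair passed the threshold with SP. At a pseudocount of 5 neither passed with 6-OHDA, and Pole did not pass with SP.

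Pcna (NCBI Gene 18538), the clamp that holds the polymerases on DNA, was at 232 FPKM in control sorted cells, 222 after 6-OHDA, 157 in control colonies and 182 with SP. Its changes were -0.06 with 6-OHDA and 0.21 with SP, neither past the threshold, and -0.56 in culture. The clamp gene was thus highest in the sorted libraries, where most other fork genes were lowest. Of the subunits of the clamp loader, Rfc3 was at 7.59 and 7.96 FPKM in sorted cells (0.06) and at 23.2 and 26.3 in colonies (0.17). Rfc4, with about 40 fragments in the control, passed the threshold with 6-OHDA (2.32 to 3.83 FPKM, 0.54) and not with SP (15.6 to 16.6, 0.08). Fen1, the flap nuclease of Okazaki fragments, passed with SP and not with 6-OHDA, at 6.1 and 6.9 FPKM (0.15) in sorted cells and 16.3 and 21.3 FPKM (0.37) in colonies. Dscc1 (NCBI Gene 72107), a subunit of an alternative clamp loader, was the lowest member in both sorted libraries, at 0.43 and 0.61 FPKM, and was at 3.62 and 5.27 FPKM in the colonies. In all, 5 of the 9 fork genes were higher with 6-OHDA, 4 with SP and 8 in culture, where 15.8%, 11.7% and 55.7% of all genes were. Pole, Pold1 and Rfc4 lost the call with 6-OHDA at a pseudocount of 5, and Pole and Dscc1 lost it with SP.

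Ribonucleotide reductase makes deoxyribonucleotides from ribonucleotides, and its 2 subunits differed in their changes with SP. Rrm2 (NCBI Gene 20135), the small subunit whose amount limits the enzyme in S phase, was at 6.14 FPKM in control sorted cells, 8.46 after 6-OHDA, 23.9 in control colonies and 46.4 with SP. Its change with SP, 0.93, came after that of E2f8 among the members, beside 0.41 with 6-OHDA. Rrm1, the large subunit, was at 16.6 and 20.4 FPKM in sorted cells (0.28) and at 43 and 57.7 FPKM in colonies (0.41). Rrm1 was above Rrm2 in every library, and relative to each other they were closest with SP. Tyms (NCBI Gene 22171), thymidylate synthase, was at 1.6, 3.16, 6.46 and 10.02 FPKM from control sorted cells to SP colonies, with changes of 0.68 for 6-OHDA and 0.56 for SP. Tk1, the thymidine kinase of the salvage route, was at 2.21, 4.02, 25.5 and 37.6 FPKM, and its change in culture, 3.04, followed that of Gmnn as the next largest and rests on about 44 fragments in control sorted cells. All 4 nucleotide genes were higher with SP and in culture, and 3 of them, all but Rrm1, were higher with 6-OHDA, where Rrm2 lost the call at a pseudocount of 5. Of all genes, 11.7% were higher with SP, 55.7% in culture and 15.8% with 6-OHDA.

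The G1/S regulators were the group with the largest median change with SP, 0.70, and the smallest in culture, 0.55, among the 6 role groups. E2f8 (NCBI Gene 108961), a repressor of the E2F family that is itself transcribed in S phase, was at 2.14 FPKM in control sorted cells, 3.44 after 6-OHDA, 3.75 in control colonies and 8.72 in SP colonies. Its level after 6-OHDA was thus close to that of control colonies. Ccne2 (NCBI Gene 12448), cyclin E2, was at 1.48, 2.91, 2.53 and 4.92 FPKM in the same order, with changes of 0.66 with 6-OHDA and 0.75 with SP, and was the lowest member in control colonies. Ccne1, cyclin E1, differed from it in sorted cells, at 8.66 and 7.41 FPKM (-0.20), and passed the threshold with SP, from 7.97 to 13.1 FPKM (0.65). E2f1, an activator of the family, was at 1.04 and 1.52 FPKM in sorted cells and at 4.21 and 5.69 in colonies. With 6-OHDA its change, 0.30, from about 44 fragments in the control, sat at the threshold and was below it under 4 of 6 other pseudocounts and scalings. All 4 regulators were higher with SP, except that E2f1 was not at a pseudocount of 5. With 6-OHDA 3 of the 4 were higher, and none of the 3 kept this at a pseudocount of 5. Of all genes, 11.7% were higher with SP and 15.8% with 6-OHDA.

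The last 4 members act on chromatin behind the fork and on histone mRNA. Uhrf1 (NCBI Gene 18140), which brings the maintenance methyltransferase to new DNA, was at 2.67 FPKM in control sorted cells, 5.7 after 6-OHDA, 16.5 in control colonies and 27.6 with SP, with changes of 0.87, 0.71 and 2.26 for 6-OHDA, SP and culture. Chaf1a (NCBI Gene 27221), the large subunit of the chaperone that places histones on new DNA, was at 2.07, 3.54, 10.5 and 14.1 FPKM in that order. Its partner Chaf1b was at 5.5 and 5.57 FPKM in sorted cells and 15 and 14.7 FPKM in colonies. Chaf1a was past the threshold in both treatments (0.56 and 0.39) and Chaf1b was near 0 in both (0.02 and -0.02). With 6-OHDA Chaf1a did not pass at a pseudocount of 5. Slbp, which binds the stem-loop of replication-dependent histone mRNAs, was at 49.6 and 55.4 FPKM in sorted cells and at 26.1 and 30.5 in colonies. It was, with Pcna and Cdt1, one of the 3 members that were lower in culture (-0.90).

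Most members that were higher after 6-OHDA lay at low levels. Control levels of the 21 ran from 0.45 to 6.94 FPKM with a median of 2.14, against a median of 9.51 FPKM for the 13 members that passed in neither direction. Of the 13 members with a mean of at least 5 FPKM, 2 were higher, Mcm3 and Rrm2, where 13.0% of all genes at that level were higher, and their median change was 0.15. Of the 18 members with a mean from 1 to under 5 FPKM, a range chosen after that count was seen, 18 were higher with a median of 0.67, where 22.4% of such genes were higher. This count is partly set by the filter, because the mean includes the 6-OHDA value. Mcm10 (0.79 and 1.26 FPKM) entered through it, while Cdc6 (0.86 and 0.88 FPKM) stayed below 1 FPKM. Of the 3 members with a mean below 1 FPKM, Pole was higher and Cdc6 and Dscc1 were not. In SP colonies the set passed the threshold at both levels, with 19 of 28 members at a mean of at least 5 FPKM, where 10.7% of genes were higher, and 6 of 6 below it, where 15.1% were. Most of the 6-OHDA count thus comes from members with a mean under 5 FPKM, for which counting error is larger, while most of the SP count comes from members of at least 5 FPKM.

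The 6-OHDA and SP comparisons have separate controls, and 18 members were higher in both (18 of the 21 higher with 6-OHDA and of the 25 higher with SP), where 2.83% of the 10799 genes compared in both were. The number higher in both fell to 9 at a pseudocount of 5, where 1.25% of these genes were. Another 3 members, Pold1, Prim1 and Rfc4, passed with 6-OHDA alone, 7 with SP alone (Mcm4, Cdc6, Cdt1, Fen1, Dscc1, Rrm1 and Ccne1), and 6 in neither (Mcm6, Mcm7, Pcna, Rfc3, Chaf1b and Slbp). Of all genes, 15.8% were higher with 6-OHDA and 11.7% with SP, whether or not they were higher in both. The shares of all genes higher in a single treatment or in neither are not given here, so these 3 counts have no background. Differences between the 2 comparisons in which members passed were not tested. Pearson's r between the 6-OHDA and SP changes was 0.25 over the 34 members and 0.09 over all 10799 genes compared, and Spearman's rho over the members was 0.28. These values are across genes of the same libraries, and genes are not independent replicates.

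**Figure D2:**
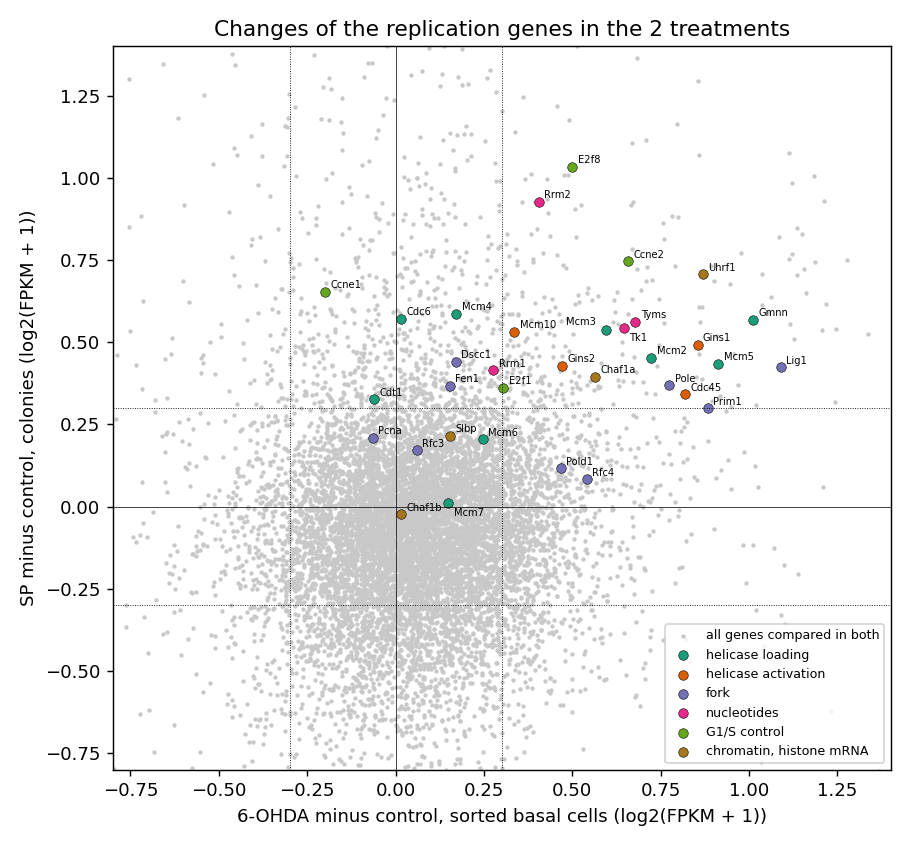
Change of each gene with 6-OHDA in sorted basal cells (horizontal axis) against its change with SP in colonies (vertical axis), both as differences of log2(FPKM + 1), with all 10799 genes compared in both in grey and the 34 members coloured by role. Dotted lines mark 0.3 in either direction, 18 members lie in the upper right field past both lines, and 411 grey genes lie outside the axes.

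Other genes of the replication machinery had smaller medians than the set, a difference that was not tested. Over 6 further lists with 81 genes, 40 were higher and 2 lower with 6-OHDA (median 0.29), where 15.8% of all genes were higher. With SP 27 were higher and 1 lower (median 0.19), where 11.7% of all genes were higher. In culture 70 were higher and 3 lower (median 1.13), where 55.7% of all genes were higher. Of 16 origin recognition and firing genes, 6 were higher with 6-OHDA and 6 with SP, beside the same shares of all genes, and none was lower. Cdc7, the kinase that fires origins, went from 2.23 to 3.61 FPKM with 6-OHDA (0.51), and Ticrr, a firing factor, from 1.37 to 2.5 FPKM with SP (0.56). In culture, Gins4, a GINS subunit outside the set, was at 3.96 FPKM in sorted and 23.7 FPKM in colony controls (2.31).

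Of 23 further fork genes, 13 were higher and 1 was lower with 6-OHDA, where 15.8% of all genes were higher. With SP 4 were higher and 0 lower, where 11.7% of all genes were higher. Clspn, which encodes the checkpoint mediator claspin, had the largest change in both among those with a mean of at least 1 FPKM, from 0.56 to 1.83 FPKM (0.86) and from 4.0 to 6.62 FPKM (0.61). Pole2, a subunit of polymerase epsilon, was at 2.08 and 4.56 FPKM in sorted cells (0.85) and at 12.6 and 13.4 in colonies (0.08). Rpa3, a subunit of the single-strand binding protein, was at 8.49 and 15.4 FPKM in sorted cells (0.79) and at 43.9 and 44.2 in colonies (0.01).

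Of 9 other nucleotide genes, 3 were higher and 1 lower in each treatment. Of all genes, 15.8% were higher and 8.35% lower with 6-OHDA, and 11.7% were higher and 19.8% lower with SP. Samhd1, the enzyme that breaks down deoxyribonucleotides, was the lower gene in both, at 32.2 and 17.8 FPKM in sorted cells (-0.82) and at 24.1 and 17.5 FPKM in colonies (-0.44). Dtymk, thymidylate kinase, went from 12.3 to 20.3 FPKM with 6-OHDA (0.68). Samhd1 was lower in culture as well (-0.40). Of 9 further G1/S regulators, 3 were higher with 6-OHDA and 2 with SP, and none was lower, beside the same shares of all genes. Among them E2f7, the other repressor of the type of E2F8, went from 1.39 to 2.5 FPKM with SP (0.55), and E2f2, an activator, from 0.18 FPKM in sorted to 4.46 FPKM in colony controls (2.21).

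Of 10 other genes of chromatin in S phase, 5 were higher in each treatment and none was lower, where 15.8% of all genes were higher with 6-OHDA and 11.7% with SP. Hells, a remodelling factor for DNA methylation, went from 2.0 to 4.55 FPKM with 6-OHDA (0.89), and Asf1b, a histone chaperone, from 8.08 to 14.1 FPKM with SP (0.73). Of 14 replication checkpoint and repair genes, 10 were higher with 6-OHDA, 7 with SP and 14 in culture, where 15.8%, 11.7% and 55.7% of all genes were, and none was lower. Of these 14 genes, 5 had a mean of at least 1 FPKM in the sorted pair, so most of their 6-OHDA changes lie between very low levels.

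Mitosis genes, which act after replication, had larger median changes than the replication set. Of 24 such genes, 21 were higher with 6-OHDA, 24 with SP and 24 in culture, where 15.8%, 11.7% and 55.7% of all genes were. Their medians were 0.74, 0.71 and 2.36, beside 0.47, 0.43 and 1.52 for the replication set. The difference between the lists was not tested. Top2a, the topoisomerase that untangles chromosomes, had the largest 6-OHDA change of the list, from 2.59 to 9.68 FPKM (1.57). Mki67, which encodes the proliferation marker Ki67, came next, from 2.31 to 6.7 FPKM (1.22), and went from 21.8 to 33.9 FPKM with SP (0.62). By staining, the paper reports fewer basal cells positive for this marker protein after the neurotoxin, and more positive cells in SP colonies. The rise of its RNA after the neurotoxin, without replicates, thus runs opposite to that protein result, and the reason was not tested. These RNA values do not show that more basal cells divided after the neurotoxin. Aurka, a spindle kinase, was higher with SP (7.5 to 15.5 FPKM, 0.96) and was, with Cdc20 and Foxm1, one of the 3 genes not past the threshold with 6-OHDA (1.77 and 2.03 FPKM, 0.13). Ccnb1, the mitotic cyclin B1, went from 1.28 FPKM in sorted to 23.9 FPKM in colony controls (3.45).

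Markers of other cell types moved beside these results, and their part in them was not tested. The 10 basal markers summed to 11202.5 FPKM in control sorted cells, 10234.6 after 6-OHDA, 6733.0 in control colonies and 14610.2 with SP, led by Krt14 in each library and with none at 0. With 6-OHDA, 1 of them was higher and 2 were lower, with SP 7 were higher and 1 was lower, and in culture 1 was higher and 7 were lower. The 12 luminal markers, led by Krt8, summed to 1164.5, 1059.9, 2120.6 and 1999.6 FPKM in the same order. They had 2 higher and 3 lower with 6-OHDA, 1 higher and 4 lower with SP, and 9 higher and 1 lower in culture. Beside both lists, 15.8% of all genes were higher and 8.35% lower with 6-OHDA, 11.7% and 19.8% with SP, and 55.7% and 26.6% in culture. Basal markers thus had the larger sum in every library, with most of them lower and most luminal markers higher in cultured than in sorted controls.

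The 12 fibroblast markers, led by Dcn in the sorted libraries, summed to 222.6 FPKM in control sorted cells, 447.5 after 6-OHDA, 47.8 in control colonies and 42.1 with SP, where Dpt and Pi16 were listed at 0. With 6-OHDA 8 of them were higher and none was lower, where 15.8% and 8.35% of all genes were. The 8 endothelial markers, led by Pecam1 although its protein CD31 was among the targets of the sorting antibodies, summed to 300.2 and 303.6 FPKM in the sorted libraries and to 1.9 and 2.0 FPKM in the colonies. Cldn5 was listed at 0 with SP, and the fibroblast and endothelial sums were far smaller in the colonies, where most members were higher. Of 12 salivary gland markers, 11 were listed in the files, and their sums were 1.9 FPKM in control sorted cells and 16093.5 FPKM after 6-OHDA, where Bpifa2 was the most abundant and 0 of them were at 0. In control sorted cells 8 of them, Bpifa2 included, were listed at 0, as were 8 in each colony library. These markers were 3.11% of the FPKM sum of the 6-OHDA library, and rescaling without them gave 21 members higher and a median of 0.48 in that comparison.

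The 16 leukocyte markers, led by Cd68, summed to 15.4, 12.4, 3.8 and 4.8 FPKM from control sorted cells to SP colonies, with Ptprc, which encodes CD45, at 0 in both colony libraries, where 13 and 9 of the markers were at 0. In the 6-OHDA comparison none was higher and 1 was lower, where 15.8% and 8.35% of all genes were. Of these 16 markers, 3 had a mean of at least 1 FPKM in the sorted pair. The others lay at very low levels, where the threshold is hard to pass, so this count says little. Of 8 erythroid markers, 5 were listed, with sums of 1.6, 9.4, 0.7 and 0.5 FPKM, and 3 were higher with 6-OHDA, where Hba-a1 was the most abundant. Hba-a1, Hba-a2 and Hbb-bs were at 0 in both colony libraries. The 6 adipocyte markers, of which Fabp4 made up nearly all, summed to 211.6, 375.3, 38.0 and 1.1 FPKM, with 4 lower in SP colonies, where 19.8% of all genes were, and Plin1, Cidec and Retn at 0 there. With 6-OHDA 1 of the 6 was higher, where 15.8% of all genes were, and the median of the list was -0.04. In each comparison 1 of the 6 had a mean of at least 1 FPKM. In culture 3 of the 6 were higher and 2 lower, where 55.7% and 26.6% of all genes were. The 6 Schwann cell markers, led by Sox10 in sorted cells and Erbb3 in colonies, summed to 86.0, 100.5, 49.5 and 37.8 FPKM. Leukocyte and erythroid sums were thus small in every library beside those of the basal markers.

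Reads of some members may be shared with other genes, since whether counting used the strand is not given in the sources used here. Exons of 13 members overlap exons of another gene in GENCODE vM21. For Ccne2, Chaf1a, E2f8, Fen1, Gins2 and Rfc4 a single gene on the other strand shares more than 10% of the exon bases. In that order these are Ints8, Ubxn6, Gm2788, Gm10143, Gse1 and Eif4a2, and Fen1 also shares bases with Tmem258. Most exon bases are shared for Fen1 (1909 of 2422 with Gm10143), Gins2 (2758 of 4097) and Chaf1a (4648 of 8854). For Ccne2, E2f8 and Rfc4 the shared bases are 609 of 3495, 610 of 5443 and 194 of 1533. Mcm7 shares 321, 64, 84 and 88 of its 4426 exon bases with Ap4m1, Cops6, Mir25 and Mir93. The values of all these members are uncertain in this respect. Pcna has the pseudogenes Pcna-ps1 and Pcna-ps2 and Tyms has Tyms-ps in the RefSeq table, and reads of these genes may be split with such copies, so their levels are uncertain too.

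The promoters of the members were searched because most of the set was higher in each comparison. RefSeq windows on GRCm38.p6, from 250 bases before to 50 bases after the start, matched 27 of the 34 members with 32 windows, and Mcm4, Gmnn, Gins1, Gins2, Pole, Dscc1 and Ccne2 had no entry. The letters TTTCCCGC, TTTGGCGC, TTTCGCGC and TTTGCCGC, which E2F factors are known to bind, and the shorter core TTCCCGC, which lies inside the first of them, were searched on both strands. Either form was found in 53.1% of the 32 windows of members, in 5.72% of all 32851 windows, and in 9.97% of the windows of genes with a mean of at least 1 FPKM. The 8-letter forms alone were in 31.2% of the members' windows against 2.26% of all and 4% of those of genes at that level, and the core in 40.6% against 4.60% and 8.14%. A match is a description of letters and shows no binding.

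The letters CCAAT, known from the factor NF-Y, were in 56.2% of the members' windows, 37.4% of all windows and 37.6% of the windows of genes with a mean of at least 1 FPKM. The letters TTTGAA and TTCGAA of the CHR element, known from promoters of mitosis genes, were in 18.8% of the members' windows, 19.2% of all windows and 13.9% of those of genes at that level, with both strands searched for each motif. By gene, 15 of the 27 members held an E2F form, among them 5 of 13 that were higher in both treatments, 3 of 5 higher with SP alone, 3 of 3 higher with 6-OHDA alone and 4 of 6 higher in neither. The E2F letters were thus found in members of each pattern.

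The 160 bases before the start are shown for 3 members, whose most upstream start has E2F letters there and no annotated gene or exon of RefSeq or GENCODE over these bases. They were chosen after the matches were seen, from 8 members that met this rule before overlapping annotation was left out. They stand for 3 patterns, since Chaf1a was higher in both treatments, Rrm1 with SP alone and Mcm6 in neither. The Chaf1a sequence is from chr17:56040256-56040415 (plus strand), that of Rrm1 from chr7:102441535-102441694 (plus strand) and that of Mcm6 from chr1:128359706-128359865 (minus strand), all GRCm38.p6 and all 5′ to 3′ toward the start. Capitals mark the E2F letters, which overlap each other at the first site of Mcm6.
Chaf1a: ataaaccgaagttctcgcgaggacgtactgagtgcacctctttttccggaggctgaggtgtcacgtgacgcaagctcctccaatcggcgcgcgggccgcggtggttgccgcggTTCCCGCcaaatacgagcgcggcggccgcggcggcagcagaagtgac
Rrm1: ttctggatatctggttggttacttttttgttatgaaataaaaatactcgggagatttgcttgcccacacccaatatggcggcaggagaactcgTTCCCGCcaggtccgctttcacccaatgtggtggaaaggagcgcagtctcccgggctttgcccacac
Mcm6: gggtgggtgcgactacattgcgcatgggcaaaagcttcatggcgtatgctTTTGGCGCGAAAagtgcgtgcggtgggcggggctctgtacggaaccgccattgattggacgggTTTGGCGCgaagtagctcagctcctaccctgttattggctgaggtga
In Chaf1a and Rrm1 the capitals are the core on the plus strand of the gene, and in Mcm6 they are 8-letter forms at 2 places. The letters CCAAT or their reverse complement ATTGG also occur in each of the 3 sequences, in lower case.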

How the data were processed

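RNA-seq was analysed for 4 libraries, 1 per condition. The authors deposited FPKM values with 2 decimals for 17630 genes listed by NCBI Gene number, and the submitters' processing notes name Bowtie2, RSEM 1.3.1, DESeq2 1.4.5 and the build mm10, with no role given for each. The number of fragments per library and the use of strand are not given there. FPKM divides by the library total, so abundant transcripts of one source lower all other values. Symbols came from the RefSeq gene table of GRCm38.p6, and 118 numbers without a symbol stayed in the comparisons.

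Libraries were compared as log2(FPKM + 1) with a threshold of 0.3. The background was all genes with a mean of at least 1 FPKM over the pair, and members were counted over all 34. No test was possible with 1 library per condition, so no p-value is given. The members and lists were chosen with earlier results of these data known. Values in all libraries are given in full for the 2 members of each role with the largest change in either treatment and for the highest and lowest member of each library. The other members are given by pairs or ranges. From each further list, genes were taken from the 3 with the largest change per comparison, and from each marker list the most abundant gene and those at 0. Some genes that this rule takes are not reported here.

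Depth was estimated from FPKM times effective length of single-transcript genes in GENCODE vM21 (between 176 and 242 genes used per fit), which gave 14.6 to 19.1 fragments for 1 FPKM on 1 kilobase over assumed fragment lengths of 150 to 300 bases. The fit scored 0.27 to 0.43, where 1 is perfect, so fragment numbers are rough. The change, the counts and the depth fit were tested on simulated data. Other choices were made after values were seen. These were the range from 1 to under 5 FPKM with its background, the limits of 50 fragments and 10% of shared exon bases, the background for a change of over 1 in culture, the count of either E2F form, the comparison with promoters of expressed genes, and the 3 printed promoters, whose rule was changed 3 times, the last time to avoid transcribed bases. The rule for when a median counts as moved was also made stricter, from within 1.5 times to any change at 2 decimals. Promoters came from RefSeq on GRCm38.p6.

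Alternatives were pseudocounts of 0.1 and 5, other scalings, stricter filters, a threshold of 1 and the mean of members. Protein motifs were planned but not analysed here. Computations ran in Python 3.11.15 with pandas 2.3.3 and numpy 2.4.6, correlations used scipy 1.17.1, and plots used matplotlib 3.10.9.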

Additional observations from a re-analysis of the deposited data

How the results depend on the processing

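No paired analysis was possible because each condition has 1 library. Leave-one-out was not possible for the same reason. No member past the threshold changed sign under 2 other pseudocounts and 4 other scalings. Across these 6 settings, 11 of the 21 members higher with 6-OHDA, 20 of the 25 with SP and 27 of the 30 in culture kept that call. At a pseudocount of 5 the call was lost by Gins2, Mcm10, Pole, Pold1, Rfc4, Rrm2, Ccne2, E2f1, E2f8 and Chaf1a with 6-OHDA, by Cdt1, Cdc45, Pole, Dscc1 and E2f1 with SP, and by Cdt1, Ccne2 and E2f8 in culture. Counts moved by over 1.5 times as follows. With 6-OHDA, 11 members were higher at a pseudocount of 5, 2 at a mean of at least 5 FPKM and 2 at a threshold of 1. In the same order, 6.84% of all genes, 13.0% of genes at that level and 1.05% of all genes were higher. With SP, 1 member was higher at a threshold of 1, where 2% of all genes were. In culture, 19 were higher at a mean of at least 5 FPKM, where 23 members entered and 55.1% of genes at that level were higher. At a threshold of 1, 0 members were lower in culture, where 13.2% of all genes were. At a mean from 1 to under 5 FPKM, a range chosen after seeing the data, 18, 6 and 11 members entered by a mean that includes the treated or cultured library and were all higher, 0 were lower, and the medians were 0.67, 0.49 and 1.38. Of all genes at that level, 22.4% were higher with 6-OHDA, 15.1% with SP and 57.3% in culture. The medians with 6-OHDA, SP and culture, in that order, were 0.62, 0.45 and 1.87 at a pseudocount of 0.1, and 0.25, 0.31 and 0.96 at a pseudocount of 5. They were 0.45, 0.40 and 1.37 with values rescaled to the same sum, 0.42, 0.49 and 1.11 with the median ratio, and 0.37, 0.48 and 1.10 after quantile normalization. Without the salivary gland markers in the sum they were 0.48, 0.40 and 1.37. Members with a mean of at least 5 FPKM gave 0.15, 0.42 and 1.68, and the mean over members was 0.45, 0.43 and 1.44. Genes higher made up 65.4% of all genes past the threshold with 6-OHDA and 50.5% with the median ratio, 37.1% and 49.9% with SP, and 67.7% and 50.2% in culture. In culture, Mcm4, Ccne2 and E2f8 lost their call with the median ratio and with quantile normalization, and Ccne1 became lower. With 6-OHDA, E2f1 lost its call under these scalings and the same sum, and Mcm10 with quantile normalization. At a pseudocount of 0.1 Dscc1 became higher with 6-OHDA. The cause of these moves was not tested. Fewer than 50 fragments limit 7 members in the control sorted library.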

Other observations

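Of 7 genes for inhibitors of cyclin-dependent kinases, 3 were higher with 6-OHDA and 0 were lower, where 15.8% of all genes were higher. With SP 0 were higher and 1 was lower, where 19.8% of all genes were lower. In culture 5 were higher and 2 lower with a median of 0.86, where 55.7% and 26.6% of all genes were. Cdkn2a and Cdkn2b, which encode inhibitors known to rise in cultured cells, were at 0.34 and 0.80 FPKM in control sorted cells and at 38 and 55.2 FPKM in control colonies. With SP they were at 45 and 41.2 FPKM, changes of 0.24 and -0.41. Both inhibitors were thus high in the same colony libraries in which most replication genes were high. Cdkn1a, which encodes p21 and was the most abundant of the list, was at 259.8, 245, 88 and 95.9 FPKM from control sorted cells to SP colonies, and Cdkn1c went from 4.44 FPKM in sorted to 0.20 FPKM in colony controls (-2.18).

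A list of 7 genes for repressive E2F factors, pocket proteins and their partners Lin9 and Lin54 had medians of 0.25 with 6-OHDA, 0.03 with SP and -0.21 in culture. Of these, 2 were higher with 6-OHDA, where 15.8% of all genes were, and with SP 1 was higher and 1 lower, where 11.7% and 19.8% were. In culture 3 were higher (Rb1, Lin9 and Rbl2) and 1, E2f4, was lower, where 55.7% and 26.6% of all genes were. E2f8, E2f7 and Rbl1 were counted in other lists and are not among the 7. Their culture changes were 0.60, 0.29 and 2.20, so the culture median depends on which genes are listed. Rb1, the retinoblastoma gene, was at 6.2, 8.14, 16.8 and 15.2 FPKM in the 4 libraries, and Rbl2, a pocket protein of resting cells, was lower with SP, from 15.5 to 11.7 FPKM (-0.38). Mcm8 and Mcm9, relatives of the ring subunits that work in repair, were at 2.83 and 6.4 FPKM in control colonies and at 3.92 and 5.64 FPKM with SP, with changes of 0.36 and -0.16.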
